A study of Mus musculus with 30 samples.

Results

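The Ccr7 migratory dendritic cell program is examined here as 7 genes, Ccr7, Fscn1, Cacnb3, Adcy6, Marcksl1, Il4i1 and Samsn1, of the 25611 gene rows of the series. Its members were chosen by symbol, with results of these data known, and Ccr7, Cacnb3 and Adcy6 were chosen because their counts were lower in untreated Rubcn knockout cells. The choice set no numerical limit. All 7 members passed the filter on low counts, with 14808 genes in all.

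Cells were dendritic cells grown from mouse bone marrow in FLT3L at 200 ng/ml and used on day 6 to 7. The genotypes were Rubcn knockout (KO) and Rubcn wild type (WT). Cultures of either genotype had no treatment or were incubated for 30 min or 4 h with OVA protein (ovalbumin) or with apoptotic cells of the human T-cell leukaemia line Jurkat. RNA sequencing libraries numbered 3 in each of the 10 groups. The labels give neither the design of the knockout allele nor the age, sex or number of the mice, and do not say whether the libraries of a group came from separate animals or cultures, so the spread between them may be technical. Levels are CPM, read counts per library size after TMM scaling, as mean ± SD with n = 3, and are compared only within a gene.

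Ccr7 is the receptor for the chemokines CCL19 and CCL21, which lead maturing dendritic cells along lymphatic vessels to the T-cell zones of lymph nodes. Dendritic cells switch on Ccr7 together with Fscn1 and a group of other genes when they mature, both on contact with microbial or cell-derived signals and during spontaneous maturation in the steady state. Mature cells of this kind present antigen well and take up less of it. FLT3L cultures hold immature conventional and plasmacytoid dendritic cells, and a minority of cells in such cultures matures without any stimulus. In bulk RNA, fewer cells with the program and less of its RNA per cell cannot be told apart.

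In the deposited table (mm10), Ccr7 lies on chromosome 11 at 99144199 to 99155077, minus strand, and Fscn1 on chromosome 5 at 142960355 to 142973189, plus strand. Adcy6 (98589986 to 98607633, minus strand) and Cacnb3 (98632328 to 98644536, plus strand) are neighbours on chromosome 15. Marcksl1 lies on chromosome 4 at 129513581 to 129515981 and Il4i1 on chromosome 7 at 44836288 to 44840809, both on the plus strand. Samsn1 lies on the minus strand of chromosome 16 at 75858794 to 75909266. The Il4i1 interval overlaps Gm21948 on the same strand and the end of Tbc1d17 on the other. In the deposited intervals the overlap with Tbc1d17 is short, from 44840776 to 44840809. The GENCODE annotation of mm10 gives Il4i1 a longer interval (44816387 to 44840809), and there 83.9% of its exonic bases are shared with Tbc1d17. The use of strand in the counting is not given in the sources used here, so Il4i1 counts are uncertain. Adcy6 shares 8.92% of its exonic bases with the antisense gene Gm29331.

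RefSeq promoter windows (GRCm38.p6; 250 bases before to 50 after a start) matched 5 of the 7 members, in 6 windows. Because these genes rose together with apoptotic cells, the windows were searched on both strands for the kappaB motif, the ISRE core (GAAA, 2 bases of any kind, GAAA) and the cAMP response element TGACGTCA. Among all 32851 windows in the RefSeq table, 8.46% hold the kappaB motif, 3.44% the ISRE core and 1.79% the cAMP response element. The only match in the 6 member windows was a cAMP response element 45 bases before the Fscn1 start, in capitals below. A match is a run of letters and does not show a bound site. The windows of Fscn1 (chr5:142960105-142960404, plus strand), Cacnb3 (chr15:98632078-98632377, plus strand, the more upstream of its pair of windows) and Marcksl1 (chr4:129513331-129513630, plus strand) are printed, as these 3 genes carry the contrasts described below. Fscn1 was the only member called between genotypes at 4 h of Jurkat cells. Cacnb3 had the largest called change of the genotype difference between treated conditions, and Marcksl1 was the member that rose most with OVA.
Fscn1: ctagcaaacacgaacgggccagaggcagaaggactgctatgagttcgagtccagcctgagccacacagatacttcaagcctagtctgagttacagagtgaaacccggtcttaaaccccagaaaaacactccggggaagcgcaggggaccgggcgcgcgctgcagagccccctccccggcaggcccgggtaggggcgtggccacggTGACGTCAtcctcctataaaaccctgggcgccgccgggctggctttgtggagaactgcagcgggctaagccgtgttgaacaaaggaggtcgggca
Cacnb3: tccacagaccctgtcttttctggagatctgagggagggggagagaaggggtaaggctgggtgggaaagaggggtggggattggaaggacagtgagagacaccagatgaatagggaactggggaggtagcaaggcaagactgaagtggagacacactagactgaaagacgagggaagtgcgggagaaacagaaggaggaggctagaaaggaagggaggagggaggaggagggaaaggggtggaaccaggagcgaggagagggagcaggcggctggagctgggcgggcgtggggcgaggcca
Marcksl1: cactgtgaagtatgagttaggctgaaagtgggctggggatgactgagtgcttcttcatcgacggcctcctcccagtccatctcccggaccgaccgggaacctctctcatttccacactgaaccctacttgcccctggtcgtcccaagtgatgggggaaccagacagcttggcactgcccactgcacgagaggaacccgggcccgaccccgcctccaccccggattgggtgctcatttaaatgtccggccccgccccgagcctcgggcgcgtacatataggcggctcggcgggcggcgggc

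Libraries held between 9.73 M and 51.6 M counts (median 44.9 M), the shallowest being KO replicate 3 of OVA at 30 min. Rubcn, the targeted gene, was lower in every KO library than in every WT library of the same condition (72.8 against 98.9 CPM untreated), so much of its RNA was still counted in KO and the labels were checked only in part. Conventional dendritic cell markers (H2-Ab1, 4489 CPM in untreated WT) and the plasmacytoid marker Siglech (800.1 CPM) were present. The 5 basophil or mast cell markers were called higher in KO in all 5 conditions, their sum being at least 50.5 CPM in every KO library and at most 33.3 CPM in every WT library. The summed 5 stromal markers ran from 685.6 to 1215 CPM in KO and from 485.1 to 893.8 CPM in WT, with 4 or 5 of the 5 called higher in KO. Of 6 plasmacytoid markers, 2 to 4 were called lower and 1 higher in KO. The summed 5 neutrophil markers were lower in every KO library than in every WT library of the same condition except untreated, at 109.8 to 115.4 against 133.0 to 143.5 CPM with OVA for 4 h and 100.2 to 105.4 against 131.6 to 137.1 CPM with Jurkat cells for 4 h, where 2 and 4 of the 5 were called lower (3 in the latter without KO replicate 2). Summed markers of the conventional type 1 and type 2 cells (cDC1 and cDC2, 6 genes each) also differed. At 4 h the cDC1 sum was lower and the cDC2 sum higher in every KO library with either agent. The cDC2 sum was already higher in every KO library untreated (1655 to 1788 against 1573 to 1627 CPM in WT). With OVA at 30 min it was so too (1682 to 1746 against 1599 to 1659 CPM). The cDC2 sums overlapped with Jurkat cells at 30 min, and the cDC1 sums overlapped in every condition other than 4 h. Single cDC1 markers went both ways, with 1 called higher and 2 lower with OVA at 4 h. With Jurkat cells at 4 h 1 was higher and 3 lower (1 and 1 without KO replicate 2). Of the cDC2 markers, 2 were called higher with OVA and 4 with Jurkat cells at 4 h, and 0 lower. Sums for cDC1 with OVA at 4 h were 441.2 to 461.6 CPM in KO and 479.9 to 510.9 CPM in WT, and those for cDC2 were 1700 to 1791 and 1573 to 1608 CPM. Macrophage or monocyte markers were called higher in KO in no condition, and up to 2 of 6 were called lower. Among all tested genes, between 3.67% and 13.5% were called lower in KO, by condition, and between 5.58% and 9.37% higher. The lowest shares were those of Jurkat cells at 30 min and the highest those of Jurkat cells at 4 h. With OVA at 4 h, 6.35% were lower and 6.22% higher. Without KO replicate 2 of Jurkat cells at 4 h, 9% were lower and 6.56% higher there. The part of all these lists in the results was not tested.

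KO replicate 2 of Jurkat cells at 4 h stood apart from its group. A chi-square of the counts over genes, per degree of freedom, was 129.1 and 134.1 between this library and the other two, and 2.28 to 16.7 for the other 28 pairs of replicates. The ribosomal RNA gene Rn45s was at 46552 CPM in it, against 2407 and 1848 CPM in replicates 1 and 3, and Lars2 at 3872 CPM against 305.9 and 235.6 CPM. Values of the members and counts of the lists with Jurkat cells at 4 h in KO are therefore given with and without it. In KO, all 7 members were called higher at 4 h than at 30 min of Jurkat cells and than in untreated cells in both cases.

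Ccr7, the chemokine receptor itself, was measured at 136.8, 143.4 and 144.0 CPM in WT cells without treatment and at 108.0, 101.6 and 101.8 CPM in their KO counterparts. These groups did not overlap, but this comparison chose the gene and is given as a description. OVA for 4 h gave 165.7, 160.2 and 148.3 CPM in WT and 115.7, 111.6 and 113.3 CPM in KO. Here too every KO library was below every WT library. Jurkat cells for 4 h gave 874.1, 1045 and 943.9 CPM in WT, and 859.5, 861.1 and 858.2 CPM in KO. This is a level far above any other condition in both genotypes, with all KO libraries a little below all WT libraries. At 30 min the libraries overlapped between genotypes, with 100.3, 138.2 and 112.7 CPM in KO and 125.5, 132.2 and 145.3 CPM in WT under OVA. The 30 min Jurkat libraries were at 148.4, 117.7 and 126.1 CPM in KO and 151.0, 163.3 and 140.8 CPM in WT. Ordered by mean, the 4 lowest groups were the 4 KO groups other than Jurkat 4 h, and the 4 WT groups other than Jurkat 4 h came next. Within that order, adjacent groups overlapped except KO untreated from KO OVA 4 h, WT OVA 4 h from KO Jurkat 4 h, and KO from WT Jurkat 4 h.

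Fscn1 encodes fascin, which bundles actin filaments and is needed for dendrites and migration of mature dendritic cells. Without treatment it stood at 124.6 ± 5.16 CPM in WT and 103.4 ± 1.18 CPM in KO. With OVA for 4 h it was 165.6, 157.2 and 146.9 CPM in WT and 117.8, 113.5 and 115.1 CPM in KO, without overlap. With Jurkat cells for 4 h it was 608.1, 618.4 and 652.0 CPM in WT and 501.7, 527.4 and 546.9 CPM in KO, again without overlap. Marcksl1 encodes a MARCKS-like protein that binds actin and membranes and is a substrate of protein kinase C. Untreated, the genotypes overlapped, at 129.6 ± 3.63 CPM in WT and 125.7 ± 2.39 CPM in KO. OVA for 4 h separated the genotypes, with 379.1, 352.0 and 305.9 CPM in WT and 238.6, 221.7 and 251.0 CPM in KO. After Jurkat cells for 4 h they overlapped once more, at 2110 ± 87.4 CPM in WT and 2036 ± 68.7 CPM in KO.

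Cacnb3 encodes the beta3 subunit of voltage-gated calcium channels, and Adcy6 an adenylyl cyclase that makes cAMP and is inhibited by calcium. In the untreated comparison that chose it, Cacnb3 stood at 84.7, 86.9 and 92.2 CPM in WT and at 58.9, 61.5 and 62.0 CPM in KO. Jurkat cells for 30 min gave 82.5, 88.5 and 83.3 CPM in WT against 65.3, 58.0 and 60.3 CPM in KO, with no overlap. OVA for 4 h gave 98.8, 95.3 and 92.6 CPM in WT against 67.8, 66.3 and 67.0 CPM in KO. Jurkat cells for 4 h gave 206.3, 217.1 and 218.2 CPM in WT and 215.6, 223.4 and 219.6 CPM in KO. Thus Cacnb3 was lower in each KO library until the genotypes came to overlap with Jurkat cells at 4 h. Adcy6 was also lower in KO in these conditions: 41.6 ± 1.31 against 29.3 ± 0.910 CPM in untreated WT and KO, 37.1 ± 1.12 against 27.9 ± 1.31 CPM at 30 min of Jurkat cells, and 45.4 ± 1.97 against 32.8 ± 1.11 CPM at 4 h of OVA. Unlike those of Cacnb3, the Adcy6 libraries overlapped between genotypes with OVA at 30 min. At 4 h of Jurkat cells its WT libraries were at 63.0, 65.8 and 63.4 CPM and its KO libraries at 60.9, 60.3 and 61.4 CPM, so that KO was still the lower group but by a small margin.

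Samsn1 encodes an adaptor protein known to restrain B cell activation, and Il4i1 a secreted L-amino acid oxidase made by mature dendritic cells. Samsn1 was lower in every KO library than in every WT library of the same condition, at both Jurkat times by a narrow margin (74.80 against 74.82 CPM and 200.3 against 201.1 CPM for the nearest pairs). With OVA for 4 h, for example, it was 89.1, 83.4 and 77.2 CPM in WT and 62.8, 67.2 and 66.7 CPM in KO. Il4i1 had only 11 to 100 counts in each library without 4 h of Jurkat cells, so its levels there are imprecise. It was 2.01 ± 0.154 CPM in WT and 1.39 ± 0.210 CPM in KO with OVA for 4 h, and 13.8 ± 1.15 and 13.9 ± 0.707 CPM with Jurkat cells for 4 h.

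**Figure D1:**
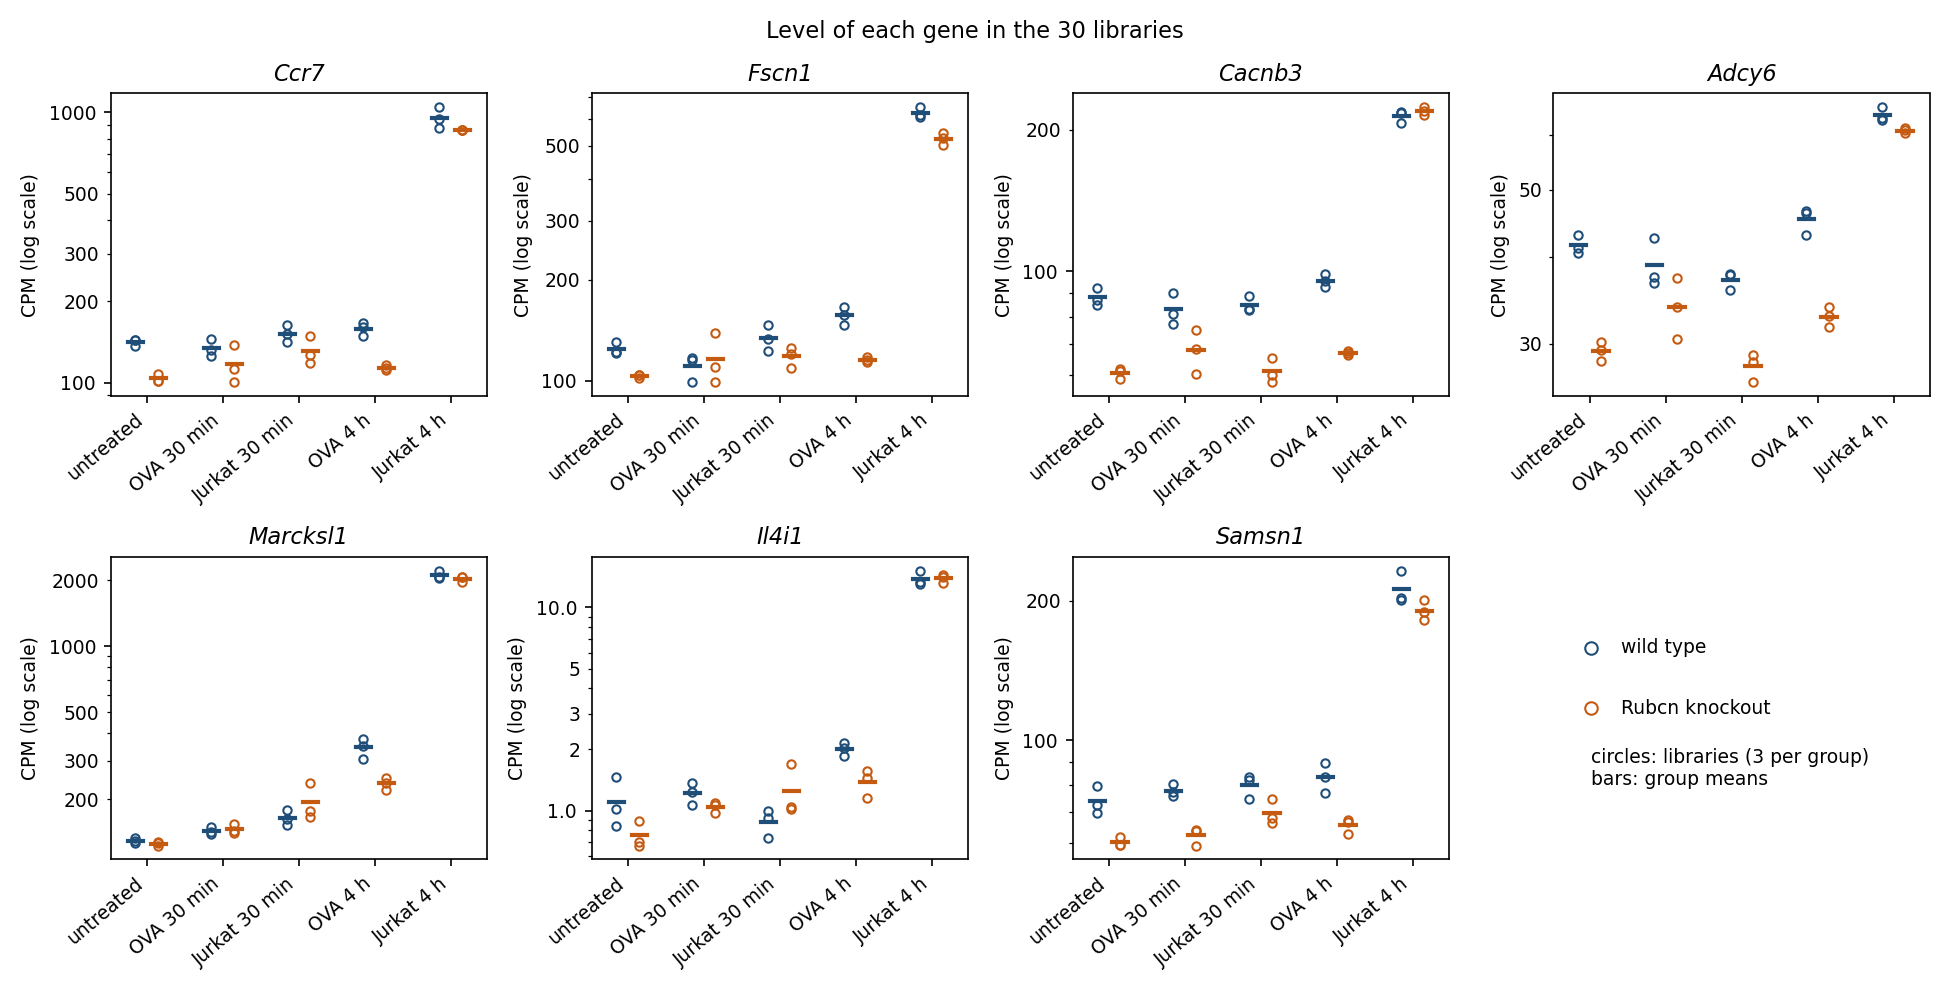
Level of each of the 7 genes in CPM (logarithmic axes, 1 panel per gene), with 1 point per library, a bar at the mean of 3 libraries and the 5 conditions along the x axis for WT and KO. All 7 genes are highest with Jurkat cells at 4 h, and at OVA 4 h the KO points lie below the WT points in every panel.

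Genotypes were then compared within each treated condition with edgeR's quasi-likelihood test over all 14808 genes, a gene being called at an FDR under 0.05. OVA at 4 h gave the broadest difference: all 7 members were called lower in KO, where 6.35% of all tested genes were called lower. KO held 71.9% of the WT level of Ccr7 (log2 fold change -0.48, SE 0.0849, FDR 0.00022), 73.8% of Fscn1 (-0.44, FDR 0.00033) and 68.6% of Marcksl1 (-0.54, FDR 5.1e-05). Cacnb3 stood at 70.2% (-0.51, SE 0.0578, FDR 3.5e-07), Adcy6 at 72.3% (-0.47, FDR 1.1e-06) and Samsn1 at 78.8% (-0.34, FDR 0.00021). Il4i1 was at 69.4% (-0.53, SE 0.170, FDR 0.039). The Il4i1 call was lost without KO replicate 1 (FDR 0.0871) or 2 (0.183) and without WT replicate 1 (0.0979) or 2 (0.132). None of the other 6 calls was lost under any alternative run. No library of any member overlapped between the genotypes in this condition, which was so, with KO lower, for 16.8% of all tested genes.

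At 30 min, 3 members were called lower in KO with either agent, Cacnb3, Adcy6 and Samsn1, against 6.13% of all genes called lower with OVA and 3.67% with Jurkat cells. Cacnb3 fell by 0.29 on the log2 scale with OVA (SE 0.0596, FDR 0.0016) and by 0.47 with Jurkat cells (SE 0.0581, FDR 3.2e-06). Samsn1 fell by 0.31 (FDR 0.0013) and 0.20 (FDR 0.034), and Adcy6 by 0.20 (FDR 0.025) and 0.41 (FDR 2.2e-05). With OVA the Adcy6 libraries overlapped, at 30.4, 37.3 and 33.9 CPM in KO and 36.7, 37.5 and 42.6 CPM in WT, and the call was lost without KO replicate 1 (FDR 0.255, -0.11) or WT replicate 3 (FDR 0.149, -0.13), with total counts (0.057) and in a fit of only the groups compared (0.108). The Samsn1 call with Jurkat cells was lost without KO replicate 2 (FDR 0.116) or 3 (0.17) and without WT replicate 1 (0.141) or 2 (0.135), and in a fit of only the groups compared (0.0678).

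Ccr7 and Fscn1 were not called at 30 min. The Ccr7 log2 fold change was -0.20 with OVA (95% interval -0.37 to -0.02, FDR 0.14) and -0.21 with Jurkat cells (-0.39 to -0.04, FDR 0.12). In each case 1 KO library stood above the other two. Without KO replicate 2 of OVA the value was -0.34 (FDR 0.0129), and without KO replicate 1 of Jurkat cells it was -0.31 (FDR 0.0211). Fscn1 was at 0.07 with OVA (FDR 0.62) and -0.18 with Jurkat cells (FDR 0.17), and the former turned to -0.09 without the same OVA library, whose Fscn1 level was 138.7 CPM against 99.2 and 109.6 CPM. Marcksl1 and Il4i1 had log2 fold changes of 0.23 (FDR 0.097) and 0.51 (FDR 0.11) with Jurkat cells. Marcksl1 was called higher there without KO replicate 2 (0.33, FDR 0.0174), while KO replicate 1 held the highest level of both genes, 238.9 CPM for Marcksl1 and 1.69 CPM for Il4i1.

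After 4 h of Jurkat cells only Fscn1 was called, lower in KO at 83.9% of WT (log2 -0.25, SE 0.0792, FDR 0.020). That is 1 of 7 members where 13.5% of all genes were called lower, a share near that of all genes. The Fscn1 call was lost without KO replicate 1 (FDR 0.0815) or 2 (0.0526), without WT replicate 3 (0.076), and with scaling to total counts (-0.17, FDR 0.107). Samsn1 was at -0.15 (FDR 0.056). It was called lower without KO replicate 3 (FDR 0.0381), WT replicate 1 (0.0417) or WT replicate 3 (0.0363), and with DESeq2 (0.0271) or its size factors (0.0335). Ccr7 was at -0.15 (interval -0.32 to 0.02), Adcy6 at -0.07 (-0.19 to 0.04), Marcksl1 at -0.05 (-0.23 to 0.12), Cacnb3 at 0.04 (-0.08 to 0.15) and Il4i1 at 0.01 (-0.23 to 0.25). Without KO replicate 2, the library that stood apart, 0 members were called with edgeR, the only tool run there, and 2, Fscn1 and Samsn1, had an unadjusted p under 0.05, where 9% of 14973 tested genes were called lower and 6.56% higher. The log2 fold changes were then -0.26 for Fscn1, -0.15 for Ccr7 (FDR 0.295), -0.15 for Samsn1 (FDR 0.13), -0.07 for Adcy6, -0.02 for Marcksl1, 0.02 for Cacnb3 and 0.05 for Il4i1. Scaled to total counts, which moved the median of all genes by less than 0.1 in this comparison, Adcy6 was at 0.01 and Marcksl1 at 0.03.

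**Figure D2:**
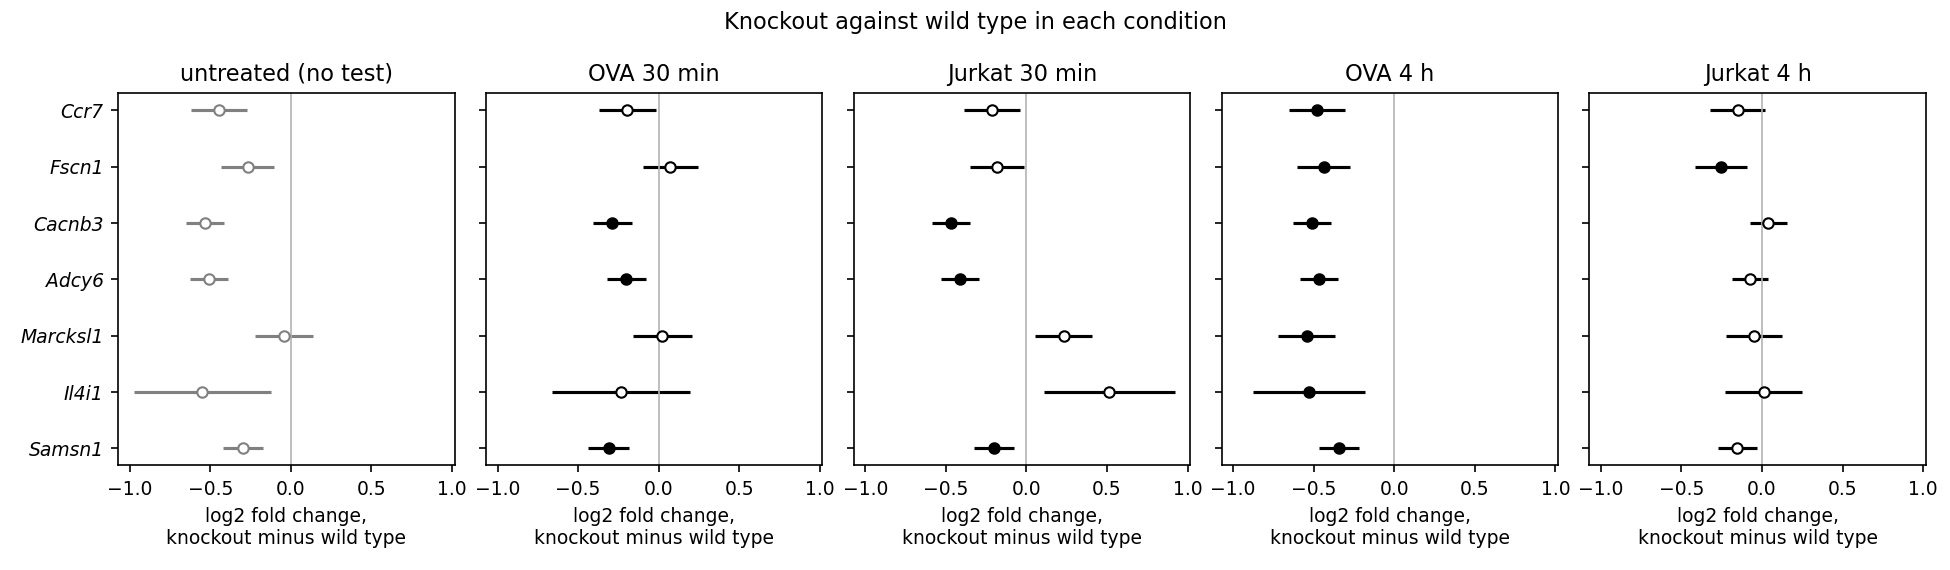
Log2 fold change of KO against WT for the 7 genes in each condition, with 95% intervals from the edgeR fit, where values below 0 are lower in KO. Filled points were called at an FDR under 0.05 in a treated condition, and the untreated points are all open, called or not. All 7 points lie between -0.54 and -0.34 at OVA 4 h, and Cacnb3 and Adcy6 move to 0.04 and -0.07 at Jurkat 4 h; the untreated values chose 3 of the genes and are shown as a description.

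In untreated cells, from which the members were in part chosen, the log2 fold changes were -0.45 for Ccr7, -0.53 for Cacnb3, -0.51 for Adcy6, -0.55 for Il4i1, -0.30 for Samsn1, -0.27 for Fscn1 and -0.04 for Marcksl1. Members called lower numbered 5, where 3.97% of all genes were, and nothing is read from that count. The Fscn1 call was lost in 5 of the 6 fits without 1 library, with values from -0.29 to -0.23, and was kept only without WT replicate 1. Il4i1 ranged from -0.72 to -0.30 and was called in 1 of those fits, that without WT replicate 3.

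Whether the genotype difference itself changed was tested between treated conditions, which use no untreated library. From Jurkat cells at 30 min to 4 h the KO against WT difference moved up by 0.51 for Cacnb3 (SE 0.0805, FDR 0.00044) and by 0.34 for Adcy6 (SE 0.0803, FDR 0.0083), as 2.98% of all genes did. Between OVA and Jurkat cells at 4 h it was higher with Jurkat cells by 0.55 for Cacnb3 (SE 0.0803, FDR 0.00021), 0.39 for Adcy6 (SE 0.0795, FDR 0.0057) and 0.49 for Marcksl1 (SE 0.121, FDR 0.026), as for 1.31% of all genes. At 4 h, then, the KO deficit of the calcium channel subunit and the cyclase was larger with OVA than with apoptotic cells. The calls for Cacnb3 and Adcy6 held without any 1 library. Without KO replicate 2 of Jurkat cells at 4 h, the change over time was 0.49 for Cacnb3 (FDR 0.0019) and 0.35 for Adcy6 (0.0174), and the difference between agents was 0.54 for Cacnb3 (0.00104), 0.40 for Adcy6 (0.0116) and 0.52 for Marcksl1 (0.0314). That for Marcksl1 was lost in 8 of 12 such fits, with an FDR of 0.0528 and 0.059 without KO Jurkat replicates 1 and 3, 0.0527 and 0.0874 without KO OVA replicates 1 and 2, 0.0506 and 0.0564 without WT Jurkat replicates 1 and 2, and 0.0809 and 0.0592 without WT OVA replicates 1 and 2. Ccr7 (0.33, interval 0.08 to 0.57, FDR 0.15), Il4i1 (0.54, FDR 0.17), Samsn1 (0.19) and Fscn1 (0.19, interval -0.05 to 0.42) were not called, but Ccr7 (FDR 0.0138) and Il4i1 (0.0464) were in a fit of only the groups compared. For the change over time with Jurkat cells, Marcksl1 was at -0.28 (FDR 0.15) and was called without KO 30 min replicate 2 (-0.39, FDR 0.037).

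From OVA at 30 min to 4 h no member's genotype difference was called with edgeR, where 0.0135% of all genes were called. Marcksl1 was at -0.57 (FDR 0.096), Fscn1 at -0.51 (FDR 0.10), Ccr7 at -0.28, Adcy6 at -0.27 and Cacnb3 at -0.22, 5 of the members with an unadjusted p under 0.05. Both Marcksl1 (FDR 0.047) and Fscn1 (0.018) were called with DESeq2, and both without a filter on low counts. Without KO replicate 1 of OVA at 30 min, Marcksl1 (FDR 0.0403), Fscn1 (0.00741) and Adcy6 (-0.36, FDR 0.0324) were called, and Marcksl1 was called without WT replicate 3 of OVA at 4 h (0.0379).

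Responses were measured within each genotype. Against OVA at the same time, Jurkat cells at 4 h raised all 7 members in both genotypes, where 37.2% of all genes rose in WT and 36.3% in KO. In WT, Ccr7 was 6.04-fold higher (log2 2.59, SE 0.0882, FDR 5.0e-21), Marcksl1 6.11-fold, Il4i1 6.88-fold and Fscn1 4.00-fold. Smaller rises were seen for Samsn1, 2.55-fold, Cacnb3, 2.24-fold, and Adcy6, 1.41-fold (log2 0.50, SE 0.0557, FDR 3.3e-09). In KO the same comparison gave 7.57-fold for Ccr7 (log2 2.92, FDR 4.5e-22), 8.58-fold for Marcksl1, 9.99-fold for Il4i1, 4.55-fold for Fscn1, 2.91-fold for Samsn1, 3.27-fold for Cacnb3 and 1.85-fold for Adcy6. Without KO replicate 2 of Jurkat cells all 7 were still called higher in KO, with log2 values of 2.92 for Ccr7, 3.13 for Marcksl1, 3.36 for Il4i1, 2.18 for Fscn1, 1.54 for Samsn1, 1.70 for Cacnb3 and 0.89 for Adcy6. The tests of the genotype difference above are the tests of these unequal responses. Scaled to total counts, which moved the median of all genes to -0.42 in WT and -0.37 in KO, all 7 stayed higher but Adcy6 in WT was no longer called (log2 0.11, FDR 0.0741).

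Reads from the human cells may be part of these libraries. Of 14 T-lineage genes, the 7 under 1 CPM in both untreated groups were summed, so low sums without Jurkat cells are in part built in. The sum was at most 3.09 CPM in libraries without Jurkat cells. Of the 13 tested genes of the full list, 11 rose and 2 fell from OVA to Jurkat cells at 4 h in WT, where 37.2% of all genes rose and 40.3% fell. In KO 9 rose and 2 fell, where 36.3% and 40.1% of all genes did. Without KO Jurkat replicate 2 these counts were 8 and 2, where 34.6% and 38.5% did. With Jurkat cells the sum was 17.5 ± 0.829 CPM for WT and 10.9 ± 2.59 CPM for KO at 30 min. At 4 h it was 50.04 ± 9.42 and 36.5 ± 4.78 CPM. At 30 min, with the T-lineage sum already raised, Ccr7 in WT was at 151.7 ± 11.3 CPM against 141.4 ± 3.98 CPM untreated. In KO, Ccr7 was at 130.8 ± 15.9 CPM then, against 103.8 ± 3.68 CPM untreated. Whether the rise of the T-lineage sum came from human or mouse RNA was not tested. How far human reads add to the members' counts was not tested either. In the same step from OVA to Jurkat cells at 4 h, the summed 6 markers of type 2 conventional dendritic cells (cDC2) went from 1573 to 1608 CPM down to 849.5 to 913.2 CPM in WT, and from 1700 to 1791 CPM down to 1001 to 1069 CPM in KO. The summed markers of type 1 cells (cDC1) stood at 479.9 to 510.9 CPM with OVA and 507.0 to 541.8 CPM with Jurkat cells in WT. In KO this sum was at 441.2 to 461.6 CPM and 419.7 to 460.7 CPM. Every KO library was below every WT library in both conditions, and the part of these markers was not tested.

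Time courses of each agent gave the same set of rises with Jurkat cells and a smaller one with OVA. From 30 min to 4 h of Jurkat cells all 7 members rose in both genotypes (37.9% of all genes in WT, 36.8% in KO), from 0.79 on the log2 scale for Adcy6 to 3.98 for Il4i1 in WT, and from 1.13 to 3.47 for the same genes in KO. From 30 min to 4 h of OVA, 6 members rose in WT, where 14.9% of all genes did: Marcksl1 by 1.26 (SE 0.0878, FDR 2.1e-11), Il4i1 by 0.72 (FDR 0.0022), Fscn1 by 0.50 (FDR 2.4e-05), Ccr7 by 0.23 (FDR 0.036), Adcy6 by 0.22 (FDR 0.0033) and Cacnb3 by 0.20 (FDR 0.0075). In KO only Marcksl1 was called (0.70, SE 0.0883, FDR 3.9e-06), where 6.5% of all genes rose, and Ccr7, Fscn1, Cacnb3 and Adcy6 were between -0.05 and -0.01. Macrophage or monocyte markers moved in the same comparison, with 4 of 6 called higher and 0 lower in WT (median 0.39) and 3 higher and 0 lower in KO (median 0.30). After 4 h of OVA, where 11.9% of all genes were called higher than in untreated WT cells, 5 of 6 of these markers were higher (median 0.49). Their sum went from 831.4 to 932.7 CPM up to 1035 to 1179 CPM in WT, and from 783.2 to 845.9 CPM up to 999.6 to 1051 CPM in KO, and their part in these rises was not tested. As given above, the difference between genotypes was not called for any member. The Ccr7 rise in WT was lost without WT 30 min replicate 1 (FDR 0.151) or 2 (0.104) and without WT 4 h replicate 1 (0.128) or 2 (0.0943), and the Cacnb3 rise without WT 30 min replicate 1 (0.0621). Without KO replicate 2 of the 30 min group, Ccr7, Fscn1, Cacnb3 and Adcy6 were at 0.10, 0.16, 0.08 and 0.05 in KO, none called.

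Comparisons with untreated cells share the untreated libraries on which 3 members were chosen. In WT, 0 members were called with OVA at 30 min by edgeR or DESeq2, where 10.7% of all genes were called by edgeR in either direction. Of the members, 1, Fscn1, had an unadjusted edgeR p under 0.05, being lower with OVA (log2 -0.17). At 30 min of Jurkat cells Marcksl1 rose by 0.35 (FDR 0.0034) and Adcy6 fell by 0.17 (FDR 0.027), where 14.2% and 14.5% of genes rose and fell. The Adcy6 call was lost without WT Jurkat replicate 1 (FDR 0.116) or WT untreated replicate 3 (0.117). At 4 h of OVA Marcksl1 (1.41), Il4i1 (0.86), Fscn1 (0.33) and Samsn1 (0.17, FDR 0.043) rose, as 11.9% of genes did, and the Samsn1 call was lost in 4 of 6 fits without 1 library: WT OVA replicates 1 (FDR 0.237) and 2 (0.0968), and WT untreated replicates 2 (0.124) and 3 (0.21). It was also lost with DESeq2 size factors (0.0543), total counts (0.0536) and only the groups compared (0.0794), and Ccr7 (0.16, FDR 0.18) was called in the last of these (0.0271). At 4 h of Jurkat cells all 7 rose, as 38.9% of genes did, Ccr7 by 2.75 and Marcksl1 by 4.02.

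In KO, Adcy6 alone was called with OVA at 30 min (0.21, FDR 0.047), where 1.88% of genes rose, and that call was lost without 5 of the 6 libraries, KO OVA replicates 2 (0.11, FDR 0.531) and 3 (0.105) and untreated replicates 1 (0.157), 2 (0.0705) and 3 (0.106). It was lost as well without a filter (0.0512) and in a fit of only the groups compared (0.15), which called Marcksl1 (0.22, FDR 0.0185). Without KO OVA replicate 1, Cacnb3 (0.25, FDR 0.0111) and Fscn1 (0.28, FDR 0.0439) were called as well. Jurkat cells at 30 min raised Il4i1 by 0.73 (FDR 0.013), Marcksl1 by 0.62 (FDR 7.8e-06), Ccr7 by 0.33 (FDR 0.0066) and Samsn1 by 0.21 (FDR 0.018), as 8.72% of genes rose. Without KO Jurkat replicate 1 only Marcksl1 was still called, with Ccr7 at 0.23 (FDR 0.0785), Samsn1 at 0.15 (0.134) and Il4i1 at 0.45 (0.172). The Il4i1 call was also lost without KO untreated replicate 1 (0.0523) or 3 (0.0588) and in a fit of only the groups compared (0.0857), which called Fscn1 (0.19, FDR 0.0399). The Samsn1 call was lost without untreated replicate 2 (0.0623) or 3 (0.0665). At 4 h of OVA Marcksl1 (0.92) and Il4i1 (0.88) rose, against 5.94% of genes, and a fit of only the groups compared also called Ccr7 (0.13, FDR 0.0255), Fscn1 (0.00398), Cacnb3 (0.0162) and Adcy6 (0.0241). At 4 h of Jurkat cells all 7 rose, against 37.5% of genes, Ccr7 by 3.05 and Marcksl1 by 4.02.

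**Figure D3:**
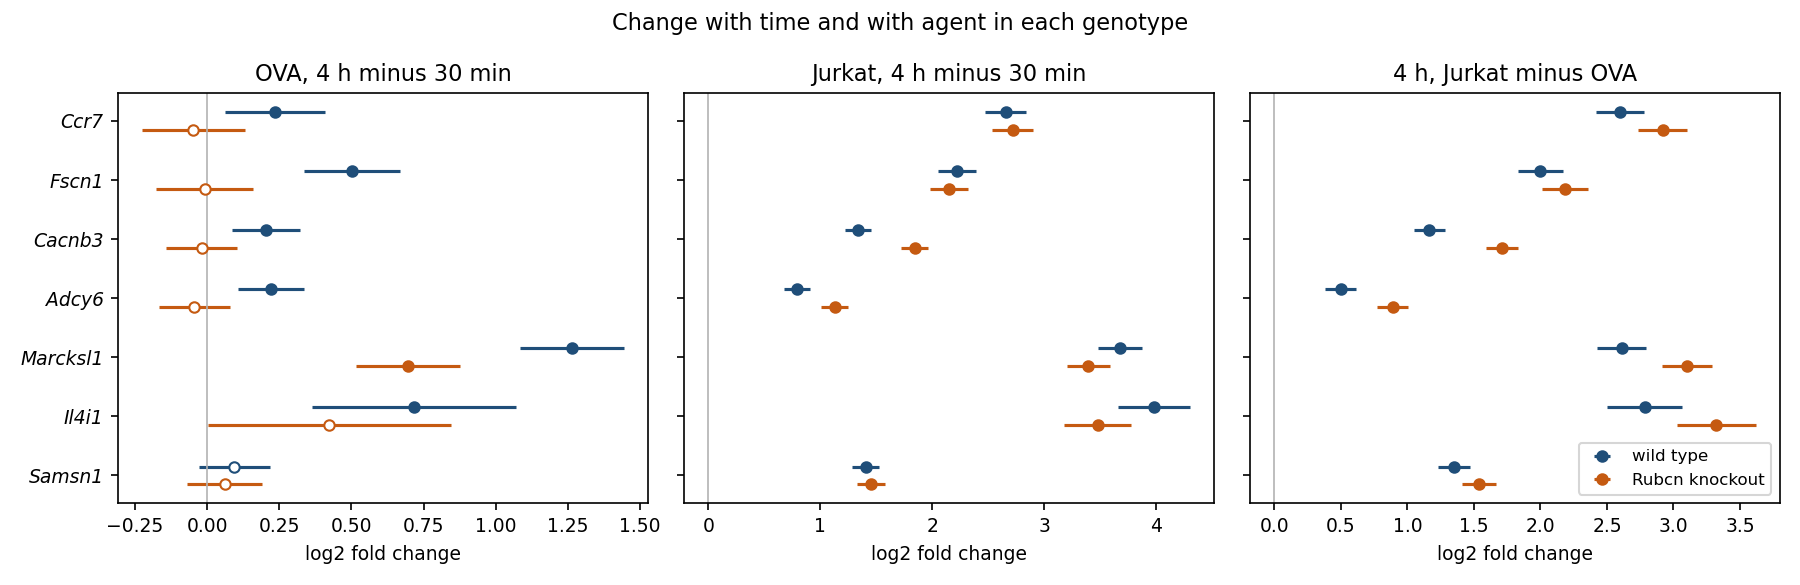
Log2 fold change of each gene from 30 min to 4 h of OVA, from 30 min to 4 h of Jurkat cells, and from OVA to Jurkat cells at 4 h, in WT and KO, with 95% intervals from the edgeR fit, filled points being called and each panel having its own x axis. All points of the Jurkat comparisons lie above 0, and with OVA the KO points of Ccr7, Fscn1, Cacnb3 and Adcy6 lie near 0 while Marcksl1 is at 1.26 in WT and 0.70 in KO.

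Other genes of dendritic cell maturation were read from a list of 40, all of them tested. With OVA at 4 h, 21 were called lower and 0 higher in KO, where 6.35% of all genes were lower and 6.22% higher, with a median log2 fold change of -0.28, against a median of all genes of -0.002. Apol7c (-0.84), Ccl5, a chemokine (-0.71, 93.4 ± 3.24 against 152.8 ± 10.9 CPM), and Serpinb6b (-0.57) had the smallest p. At 30 min with OVA 3 were higher and 6 lower, where 6.25% and 6.13% of all genes were, and with Jurkat cells 9 were higher and 4 lower, where 5.58% and 3.67% were. Ccl5 was lower in KO at both (-0.41 and -0.37), and Socs3, a feedback inhibitor of cytokine signalling, was higher (0.39 and 0.50). At 4 h of Jurkat cells 10 were lower and 4 higher, where 13.5% and 9.37% of all genes were, with a median of -0.08 (7 lower and 3 higher, median -0.07, without KO replicate 2): the cytokine Il15 was at -0.82, its receptor chain Il15ra at -0.53, and H2-M2, a nonclassical MHC gene, at 0.61. In untreated cells 3 were higher and 11 lower (median -0.17), where 6% and 3.97% of all genes were.

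From 30 min to 4 h of OVA, 30 of the 40 rose and 1 fell in WT (median 0.38), where 14.9% of all genes rose and 14.7% fell, among them the NF-kappaB genes Nfkb2 (0.75) and Relb (0.74), and 13 rose and 2 fell in KO (median 0.20), where 6.5% rose and 6.28% fell. From OVA to Jurkat cells at 4 h, 39 rose and 0 fell in WT (median 2.40), where 37.2% of all genes rose and 40.3% fell, and all 40 rose in KO (median 2.56), where 36.3% rose and 40.1% fell. All 40 also rose in KO without Jurkat replicate 2 (median 2.58). Socs3 rose by 3.67 and 3.63 in WT and KO, and Cd83, a surface marker of mature dendritic cells, by 2.90 and 3.13.

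Genes of dendritic cell movement were read from a list of 25, against the same shares of all genes. KO against WT with OVA at 4 h gave 1 higher and 7 lower (median -0.05), where 6.22% and 6.35% of all genes were, with Icam1, an adhesion molecule, at -0.47, Cxcl16 at -0.36 and the prostaglandin receptor Ptger4 at -0.22. With Jurkat cells at 4 h 1 was higher and 7 lower, where 9.37% and 13.5% were (0 and 3 without KO replicate 2, where 6.56% and 9% were), including Dock8 (-0.33), Rock1 (-0.29) and Gna13 (-0.23), which act in the control of actin and contraction. At 30 min 3 were higher and 1 lower with OVA and 4 higher and 0 lower with Jurkat cells, among them Mmp14, a membrane metalloproteinase (0.32 and 0.39), and Ptger2 (0.37 and 0.40). From OVA to Jurkat cells at 4 h, 16 rose and 5 fell in WT and 17 rose and 5 fell in KO, where 37.2% and 36.3% of all genes rose and 40.3% and 40.1% fell.

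Of 15 other chemokine receptors, 14 were tested. From OVA to Jurkat cells at 4 h, 3 rose and 9 fell in WT and 4 rose and 7 fell in KO (3 and 7 without KO Jurkat replicate 2), where 37.2% and 36.3% of all genes rose and 40.3% and 40.1% fell, with Ccr2, a receptor of monocytes and immature cells, at -1.32 and -1.25 and Cxcr3 at -2.26 and -2.13. Xcr1, a receptor of cDC1, rose by 0.66 and 0.81. Between genotypes, 1 was higher and 3 lower in KO with OVA at 30 min, where 6.25% and 6.13% of all genes were. Jurkat cells at 30 min gave 0 and 2 (all genes 5.58% and 3.67%), and OVA at 4 h 1 and 2 (6.22% and 6.35%). Jurkat cells at 4 h gave 3 higher and 1 lower, where 9.37% and 13.5% were (2 and 1 without KO replicate 2, where 6.56% and 9% were). Cx3cr1, the fractalkine receptor, was lower in KO in all 4 treated conditions. It was at -0.34 and -0.19 at 30 min of OVA and Jurkat cells and -0.34 and -0.59 at 4 h.

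Paralogs of the members numbered 17, of which 13 were tested. With OVA at 4 h, Adcy7 (0.12) and Adcy9 (0.26) were higher in KO and none was lower, where 6.22% and 6.35% of all genes were, and at 30 min none was called with either agent. With Jurkat cells at 4 h Adcy7 was at 0.13 and Cacnb2, another calcium channel beta subunit, at -0.48. From OVA to Jurkat cells at 4 h, Adcy7 fell by 2.01 in WT and by 2.01 in KO, while Marcks rose by 1.46 and 1.83. The ligand genes Ccl19 and Ccl21a had 0 counts in all 30 libraries, where 3 counts over all libraries would be 0.00228 CPM. Ackr4, which scavenges both chemokines, had 163 counts over the 30 libraries and at most 11 in any of them, and was not tested.

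Adcy6 and Cacnb3 lie 24694 bases apart and are read away from each other. Within 100 kb of them the table holds 15 rows, of which 11 were tested, these 2 members and 9 others. Among the 9, none was called between genotypes at 30 min of Jurkat cells, nor in untreated cells. Fkbp11, a chaperone gene, was called higher in KO with OVA at 30 min (0.86, SE 0.228, FDR 0.0118) and at 4 h (0.74, SE 0.206, FDR 0.0155), at levels of 1.04 and 1.09 CPM in KO. Arf3 was lower in KO at 4 h of Jurkat cells by a small margin (-0.11, FDR 0.0327), a call that was lost without KO replicate 2 (-0.09, FDR 0.141). With OVA at 4 h the 8 neighbours other than Fkbp11 were not called, beside -0.51 for Cacnb3 and -0.47 for Adcy6. Only 4 of the 9 reached 5 CPM there. The lower ones were measured imprecisely, with SEs from 0.159 (Rnd1) to 0.539 (Mir1291).

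**Figure D4:**
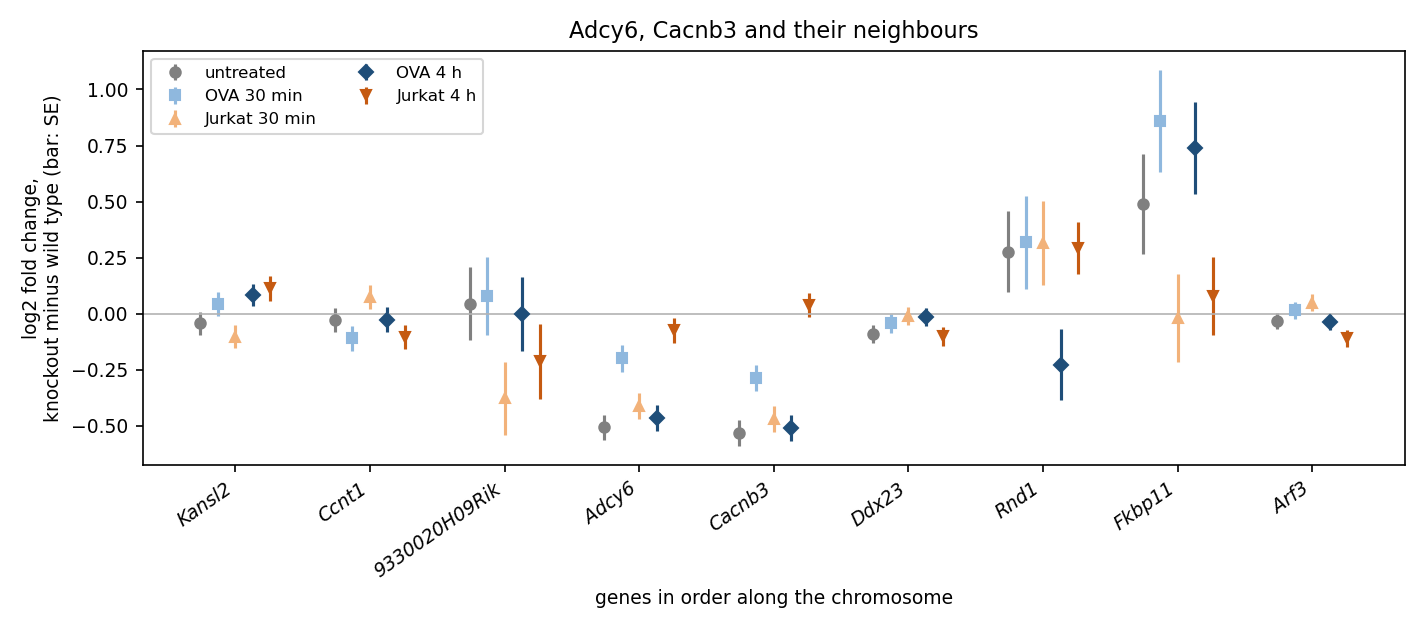
Log2 fold change of KO against WT for tested genes within 100 kb of Adcy6 or Cacnb3 whose mean reached 1 CPM in some group, placed in their order along the chromosome, with 1 marker per condition and bars of 1 SE. Cacnb3 and Adcy6 lie near -0.5 at OVA 4 h, while the other genes there were not called apart from Fkbp11 at 0.74.

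Profiles across libraries were compared with that of Ccr7 as Pearson correlations of log2 CPM. They covered 10724 genes whose mean was at least 5 CPM in any of the 10 groups. These are descriptions, since the libraries share groups, genotype and scaling. Over all 30 libraries, in which the 6 libraries of Jurkat cells at 4 h stand far from the rest, the genes most like Ccr7 outside the members were Mmp25 (0.997), Poglut1 (0.995), Tor1aip1 (0.994), Btg1 (0.994) and Adora2a (0.993). Fscn1 (0.993) ranked 5 among all genes, Samsn1 45, Cacnb3 483, Il4i1 625, Marcksl1 837 and Adcy6 (0.896) 2103.

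Over the 18 untreated and OVA libraries, whose range is set mainly by the genotypes, the order changed. Cacnb3 (0.973) ranked 1 and Adcy6 (0.959) 3, after Mmp25 (0.966), followed by Ccl5 (0.933), Slco5a1 (0.914), Myzap (0.910) and Dusp5 (0.905). Myzap passed the 5 CPM limit only through Jurkat cells at 4 h (8.82 CPM in WT, 6.29 CPM in KO). Its means in the groups ranked here were 1.37 to 2.39 CPM. Il4i1 likewise passed only through Jurkat cells at 4 h, with means of 0.755 to 2.01 CPM in the groups ranked here. Fscn1 ranked 45, Samsn1 67, Il4i1 476 and Marcksl1 (0.469) 1321. Cacnb3, Adcy6 and Ccr7 were chosen on 6 of these libraries, so their high places are in part built in. Mmp25, a membrane-anchored metalloproteinase, was measured at 44.9 ± 2.54 CPM in WT and 28.6 ± 0.734 CPM in KO with OVA at 4 h, and at 258.1 ± 22.9 and 211.7 ± 14.0 CPM with Jurkat cells at 4 h. Among the 21 pairs of members the correlation was 0.852 to 0.993 over all libraries (median 0.966) and 0.419 to 0.985 over the 18 (median 0.732). The closest pair of the 18 was the neighbours Cacnb3 and Adcy6 (0.985), and the most distant was Cacnb3 and Marcksl1 (0.419).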

How the data were processed

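RNA sequencing counts of 30 libraries were used, with groups and replicate numbers from the sample titles. The authors deposited whole-number read counts per gene, with symbols and mm10 intervals, per the file headers. Tools named in the submitters' processing notes are STAR 2.5, Subread featureCounts 1.5.0-p1 and DESeq2, without their settings. Per the labels' protocols, RNA was taken with Trizol and a column with DNase, and the library kit was TruSeq RNA v2. How human reads, strand and near-identical genes were treated is not given in the sources used here.

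Counts were scaled with TMM factors (0.765 to 0.842 with Jurkat cells at 4 h, 1.03 to 1.07 otherwise), and low genes were removed by filterByExpr with the groups. Comparisons were made with the two-sided quasi-likelihood F test of edgeR 4.0.16 (in R 4.3.3), from 1 model of 10 group means without covariates, with Benjamini-Hochberg adjustment (FDR) over 14808 genes. The SE is the absolute log2 fold change over the square root of F. Correlations used a prior count of 2. Intervals and floors cover the fit or counting error only.

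Alternatives were DESeq2 size factors, total counts, no filter, at least 5 CPM in 3 libraries, a replicate block, only the groups compared, DESeq2 1.42.0 and leaving out each library. The members and gene lists were chosen with earlier results of these data known. Named list genes are up to 3 per list and comparison with the smallest p at an FDR under 0.05 and 5 CPM in the higher group. Genes most like Ccr7 are the 5 with the highest correlation. The procedure was tested on simulated data with planted changes.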

Additional observations from a re-analysis of the deposited data

Results flagged for a closer look

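For 5 results, the KO against WT difference itself differed between treated conditions by edgeR's test over all genes. From Jurkat cells at 30 min to 4 h, the log2 difference rose by 0.51 for Cacnb3 (-0.47 to 0.04) and by 0.34 for Adcy6 (-0.41 to -0.07). Between OVA and Jurkat cells at 4 h it was higher with Jurkat cells by 0.55 for Cacnb3 (-0.51 to 0.04), by 0.39 for Adcy6 (-0.47 to -0.07) and by 0.49 for Marcksl1 (-0.54 to -0.05). The summed T-lineage reads moved with the same contrast, having a lower mean in KO than in WT with Jurkat cells at both times, and their part in these differences was not tested.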

How the results depend on the processing

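Under the alternatives other than leaving out a library, 291 counts of calls kept within 1.5 times their value and 17 did not. With a fit of only the groups compared, genes called numbered 1460 for Jurkat 30 min against untreated in KO, 891 for KO against WT at Jurkat 30 min, 246 and 833 for OVA 30 min against untreated in KO and WT, and 563 for the change of the genotype difference from Jurkat 30 min to 4 h. Members called under that fit numbered 5 for the difference between OVA and Jurkat cells at 4 h, 1 for the change from OVA 30 min to 4 h and 6 for OVA 4 h against untreated in KO. For the change from OVA 30 min to 4 h, DESeq2 called 40 genes and 2 members, and no filter 22 genes and 2 members, against 2 genes and 0 members. Without a filter 0 members were called for OVA 30 min against untreated in KO. For KO against WT at Jurkat 4 h, 2 members were called with DESeq2, its size factors or the replicate block, and 0 with total counts. The cause was not tested in any of these.

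Replicate numbers did not pair KO with WT libraries of the same condition. Deviations of same-numbered libraries correlated there at -0.118 to 0.108. Among the libraries of the other genotype, 9 of 30 libraries correlated best with their own number. Pairing across treatments within a genotype was not examined. The replicate block changed 1 member call, Samsn1 at Jurkat 4 h (-0.15, FDR 0.0461), and no other call of a member.

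Values near 0 that were not called changed sign under an alternative. For KO against WT at Jurkat 4 h these were Adcy6 (0.0064) and Marcksl1 (0.0278) with total counts, and Il4i1 with DESeq2 (-0.0074) and its size factors (-0.0070). Cacnb3 in Jurkat 30 min against untreated, KO, was at -0.0023 with total counts. Without 1 library, Fscn1 ranged from -0.092 to 0.183 and Marcksl1 from -0.020 to 0.056 for KO against WT at OVA 30 min, and Il4i1 from -0.034 to 0.079 at Jurkat 4 h. From OVA 30 min to 4 h in KO, Adcy6 ranged from -0.135 to 0.054, Cacnb3 from -0.109 to 0.077, Ccr7 from -0.156 to 0.102 and Fscn1 from -0.12 to 0.155. Il4i1 ranged from -0.031 to 0.396 for OVA 30 min against untreated in WT, and Cacnb3 from -0.039 to 0.047 for Jurkat 30 min against untreated in KO. For the change of the genotype difference, Ccr7 ranged from -0.0081 to 0.163 (Jurkat 30 min to 4 h) and Samsn1 from -0.085 to 0.020 (OVA 30 min to 4 h).

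Without 1 library, genes called between genotypes ranged from 898 to 1357 untreated, 718 to 1792 at OVA 30 min, 708 to 1158 at Jurkat 30 min, 1172 to 1709 at OVA 4 h and 2189 to 3102 at Jurkat 4 h. For changes of the genotype difference they ranged from 665 to 1361 (Jurkat 30 min to 4 h), 198 to 358 (OVA to Jurkat 4 h) and 0 to 75 (OVA 30 min to 4 h). Against untreated they ranged from 173 to 710 and 903 to 1847 for OVA 30 min in KO and WT, 1674 to 2369 for Jurkat 30 min in KO and 1105 to 1382 for OVA 4 h in KO. From OVA 30 min to 4 h in KO the range was 1225 to 1456. Members called ranged from 1 to 4 and 1 to 2 for Jurkat 30 min against untreated in KO and WT, 0 to 3 for OVA 30 min against untreated in KO, 0 to 2 for KO against WT at Jurkat 4 h, and 0 to 3 for the change from OVA 30 min to 4 h.

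Total counts in place of TMM raised the share of called genes that were higher in KO from 50.5% to 63.8% at OVA 30 min, 49.5% to 64.5% at OVA 4 h and 40.9% to 74.8% at Jurkat 4 h. For changes of the genotype difference, the share of called genes whose difference moved up rose as well. It went from 33.7% to 71.3% (Jurkat 30 min to 4 h) and from 51.7% to 77.1% (OVA to Jurkat 4 h). Jurkat 4 h was also set against the other conditions within each genotype. There the share of called genes higher with Jurkat cells at 4 h fell from between 47.5% and 48.9% to between 26.5% and 29.2%. Depth limits Il4i1 most, with 11 counts in the shallowest library.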
